A study of Mus musculus with 2 samples.

Results

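Cells of the mouse jejunal crypt that are named here Lgr5-negative, Olfm4-high, non-mitotic progenitors were 3040 of 22282 cells kept from 2 single-cell libraries. Of these, 278 came from the FZD5/8 antagonist library and 2762 from the Fc control library. A cell was kept if it had at least 500 detected genes and at most 20% of its unique molecular identifiers (UMIs, each a count of 1 captured transcript) from mitochondrially encoded genes. A kept cell was a member if it had no UMI of Lgr5 and at least 0.2% of its UMIs from Olfm4. At the depth of these cells, a lack of Lgr5 UMIs does not show that Lgr5 was off, so members can include stem cells. At most 1 of the mitotic genes Mki67, Top2a, Cdk1, Ccnb1 and Cenpf and at most 3 of the replication genes Mcm5, Mcm6, Pcna, Rrm2, Tyms and Uhrf1 could be detected. The Paneth cell genes Lyz1 and Defa had to stay under 10% of UMIs, and the goblet cell genes Muc2, Fcgbp, Tff3, Agr2 and Spink4 under 2%. The cells were thus chosen by these measured values, so the number of members and the levels of these genes are described and support nothing.

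The cells came from the jejunum. All mice carried Lgr5-eGFP-IRES-CreER, an allele that places a green fluorescent protein (GFP) reporter under the Lgr5 locus and is known for patchy expression from crypt to crypt. GFP-positive cells had been sorted from mice of 10 to 12 weeks, labelled female, with 3 mice and 1 library for each condition: an antagonist of FZD5 and FZD8, and an Fc protein as control. Both conditions share the reporter allele and the sort. The dose of the antagonist and the length of treatment are not stated in the labels, and the mouse of origin of each cell is not recorded there.

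Lgr5 marks the crypt base columnar stem cells of the small intestine. These cells depend on Wnt ligands, which bind Frizzled (FZD) receptors with LRP co-receptors and so stabilise beta-catenin, the partner of TCF factors at Wnt target genes. Olfm4 encodes a secreted glycoprotein made by the stem cells and by their first progeny, which leave the base, divide, and become absorptive enterocytes or secretory cells.

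There was 1 library per condition, and so neither a replicate check nor a test. Each difference below is between these libraries, not between the conditions, and every interval is an exact 95% interval that covers counting error only. Levels are UMIs summed over the members of a library and scaled to a total of 1e+06 UMIs (CPM), and ratios are antagonist over control. The members held 493801 UMIs in the antagonist library and 9405229 in the control library, with medians of 1508.5 and 2890.5 UMIs per cell, against 2732 and 4478 over all kept cells. The libraries shared 145 cell barcodes, of which 1 was a member in the antagonist library and 14 were members in the control library. Sex-linked transcripts separated the libraries although both are labelled female. Xist, the RNA of the inactive X chromosome, had a UMI in 192 antagonist and 19 control members, and Y-linked genes had a UMI in 7 antagonist and 923 control members. The library labelled Fc control thus goes against its sex label, and sex cannot be told apart from condition in any difference given here. Whether the condition labels stand on the right libraries was not tested, so every ratio is between the libraries as labelled.

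Members made up 2.52% (2.24 to 2.83) of kept cells in the antagonist library and 24.5% (23.7 to 25.3) in the control library. Applied in order, the absence of Lgr5 left 10860 of 11019 antagonist cells and 8204 of 11263 control cells. The Olfm4 criterion then left 424 and 4488 cells, which was 3.90% of the remaining antagonist cells and 54.7% of the remaining control cells. The gap in the share therefore arose at the Olfm4 step, while the mitotic limit kept similar proportions, 68.2% of antagonist and 64.7% of control cells. The remaining limits then left 278 of 289 antagonist cells and 2762 of 2905 control cells.

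The share depended on depth, and so did its gap. Among cells under 2000 UMIs, 4.45% of antagonist and 41.4% of control cells were members. Between 2000 and 4000 UMIs these shares were 2.56% and 31.7%, and between 4000 and 8000 UMIs they were 0.406% and 21.3%. At 8000 UMIs and over, 0 of 1120 antagonist cells met the rule, against 5% of control cells. A count of 0 allows a share of up to 0.268% by the floor of 3 counts, the limit used for each count of 0 here, and of up to 0.329% by the exact interval. The antagonist share was lower in every stratum, and both shares declined with depth. After each cell was thinned to 3000 UMIs, 54 of 5036 antagonist cells (1.07%) and 2237 of 7536 control cells (29.7%) met the rule. Cells with at least 1% of UMIs from Apoa1, Apoa4, Apoc3 and Apob, apolipoprotein genes of mature enterocytes that should lack Olfm4, gave the background of the Olfm4 criterion. Of these, 0 of 177 passed it in the antagonist library (up to 1.69%) and 2 of 117 (1.71%) in the control library, at median depths of 3727 and 5925 UMIs.

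**Figure D1:**
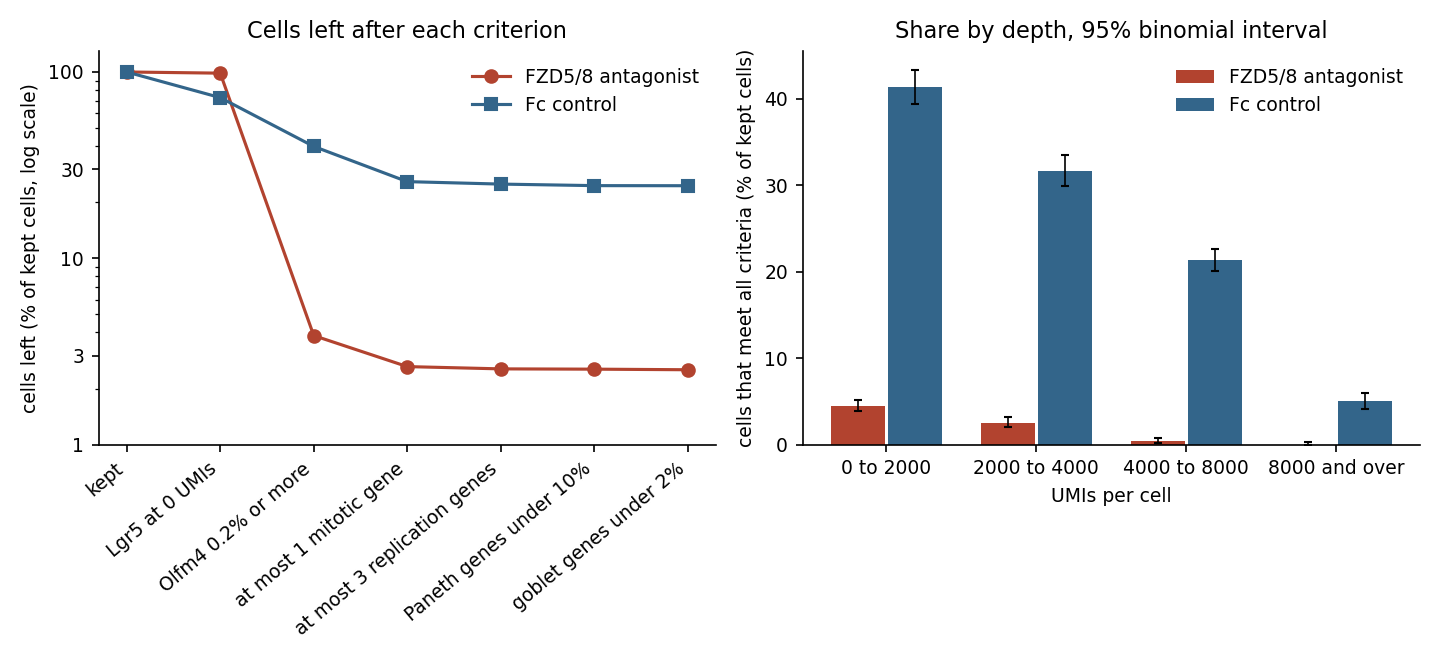
The left panel gives the percent of kept cells left after each criterion of the rule (log axis), and the right panel the percent of cells that meet it by UMIs per cell with exact 95% binomial intervals, for the FZD5/8 antagonist and Fc control libraries. The curves part at the Olfm4 step, and in the shallowest stratum 4.45% of antagonist and 41.4% of control cells are members.

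Members of the antagonist library also lay closer to the Olfm4 threshold. The median Olfm4 share of a member was 0.281% in the antagonist library and 0.362% in the control library, with highest values of 1.23% and 1.62%. In UMIs the medians were 5 and 11, and 92 antagonist members (33.1%) against 252 control members (9.12%) had at most 3 Olfm4 UMIs. A larger share of antagonist than of control members thus met the rule on very few molecules. Antagonist members were also shallower, so a given Olfm4 share took fewer of their UMIs. Just inside the threshold, at 0.2 to 0.25%, there were 97 antagonist and 462 control cells, and Gkn3 stood at 37.4 and 211 CPM, Soat1 at 134 and 279 CPM, and Axin2 at 90.9 and 169 CPM. Just outside, at 0.15 to 0.2%, there were 143 and 457 cells that met all other criteria, and Gkn3 stood at 50.1 and 163 CPM, Soat1 at 116 and 201 CPM, and Axin2 at 106 and 147 CPM. On either side of the threshold each of these genes was lower in the antagonist library.

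Levels are given for 3 markers that the rule did not use. Gkn3 (ENSMUSG00000030048, chr6:87383256-87388935, minus strand, GRCm38) encodes a secreted gastrokine and is known as a marker of Lgr5 stem cells in the mouse small intestine. It had 21 UMIs (42.5 CPM) in 17 of 278 antagonist members and 2150 UMIs (229 CPM) in 1007 of 2762 control members, a level 5.38-fold lower in the antagonist library (ratio 0.186, 0.115 to 0.285). Soat1 (ENSMUSG00000026600, chr1:156424525-156474331, minus strand), the enzyme that esterifies cholesterol for storage, had 84 and 3253 UMIs, or 170 and 346 CPM (ratio 0.492, 0.391 to 0.611). Rgmb (ENSMUSG00000048027, chr17:15803188-15831039, minus strand), a membrane-anchored co-receptor of the BMP pathway, had 59 and 1678 UMIs, or 119 and 178 CPM (ratio 0.670, 0.508 to 0.868). All 3 were thus lower in the antagonist library, while Olfm4 itself, fixed in part by the rule, was at 3483 and 3797 CPM. In each library all 3 were higher than in Lgr5-negative cells that met every other criterion but had Olfm4 under 0.2%. In the antagonist and control libraries this was by 2.71-fold and 2.54-fold for Gkn3, 3.80-fold and 2.61-fold for Soat1, and 5.70-fold and 2.72-fold for Rgmb. Those Olfm4-low cells include absorptive cells, with Rbp2 at 6278 and 5279 CPM, so crypt genes in general can be higher in members. In the control library none of the 3 was higher in members than in Lgr5-positive cells. The markers thus do not tell progenitors from stem cells, and the label was not tested.

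The 250 bases before the start of Gkn3 (chr6:87388936-87389185) and Soat1 (chr1:156474329-156474578) are shown because these markers differed most between the libraries. They are RefSeq sequences of build GRCm38.p6, written 5′ to 3′ on the minus strand, where both genes lie.
Gkn3: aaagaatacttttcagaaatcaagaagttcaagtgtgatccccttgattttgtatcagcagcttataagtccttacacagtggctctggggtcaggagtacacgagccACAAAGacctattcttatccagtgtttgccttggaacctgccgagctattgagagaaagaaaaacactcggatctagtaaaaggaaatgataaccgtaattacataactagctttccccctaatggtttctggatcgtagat
Soat1: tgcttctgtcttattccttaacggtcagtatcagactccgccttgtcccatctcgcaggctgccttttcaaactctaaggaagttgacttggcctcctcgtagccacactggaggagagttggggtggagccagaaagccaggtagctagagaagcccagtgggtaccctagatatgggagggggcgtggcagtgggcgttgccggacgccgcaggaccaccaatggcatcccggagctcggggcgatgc
Both strands were searched for CTTTGA and CTTTGT, cores that TCF factors are known to bind, and for the TATA box core TATAAA. The capitals in Gkn3 mark CTTTGT on the opposite strand, the only match in either window. Among 32536 RefSeq promoter windows of this length, 16.5% held CTTTGT, 13.9% CTTTGA and 12.3% TATAAA. The match is a description of the letters in this window and the absence of matches in Soat1 says only that these letters are not in it.

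Shares of members with a UMI followed the levels but are sensitive to depth. Gkn3 had a UMI in 6.12% of antagonist and 36.5% of control members as deposited. With each member thinned to 3000 UMIs, which left 27 antagonist and 1329 control members and set 251 and 1433 aside, the shares were 18.5% (6.30 to 38.1) and 42.6%. In apolipoprotein-rich cells at that depth Gkn3 had a UMI in 0 of 101 antagonist cells (up to 2.97%) and 8 of 102 control cells (7.84%), so both member shares lay above this background. Thinned to 1000 UMIs, which kept 197 and 2499 members, the shares were 3.05% and 17.0% for Gkn3 and 13.2% and 30.6% for Soat1. Soat1 had a UMI in 22.7% and 59.9% of members unthinned. At 3000 UMIs its shares were 40.7% and 59.4%, against 2.97% and 3.92% in apolipoprotein-rich cells.

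Genes of the Lgr5 stem cell signature, taken without the genes of the rule, were lower in the antagonist library as a group. A gene was counted where it had at least 20 UMIs over both libraries, and it was called where the levels differed at least 1.5-fold. Of the 40 counted genes of the signature, 22 (55%) were lower by that much and 1 was higher, with a median log2 ratio of -0.61. Over all 10734 genes counted, 19.8% were lower and 13.2% higher, with a median log2 ratio of 0.06. With at least 100 UMIs, 21 of 38 genes of the signature were lower and none was higher, against 14% lower and 8.76% higher of 7834 genes. Lbh, a transcription cofactor known as a Wnt target, was at 48.6 CPM in the antagonist library and 183 CPM in the control library (3.77-fold lower). Sorbs2, an adaptor of the actin cytoskeleton, was at 28.4 and 84.5 CPM (2.98-fold lower). Igfbp4, a secreted binding protein of insulin-like growth factors, was at 72.9 and 128 CPM (ratio 0.570, 0.397 to 0.793). Not all of the signature was lower: Noxa1, an activator of NADPH oxidase, was at 24.3 and 23.8 CPM, and Esrrg, an orphan nuclear receptor, at 22.3 and 22.2 CPM.

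Wnt target genes were mostly lower in antagonist members. Of 21 counted, 16 were lower. For 9 (42.9%) the gap was 1.5-fold or more, and none was higher by that much, with a median log2 ratio of -0.37. Of all genes counted, 19.8% were lower and 13.2% higher by 1.5-fold, with a median log2 ratio of 0.06. Ascl2, the Wnt-driven transcription factor of intestinal stem cells, was at 48.6 and 80.8 CPM in the antagonist and control libraries (ratio 0.601, 0.383 to 0.902). Its log2 ratio of -0.70 turned to 0.12 when cells were thinned to 3000 UMIs before the rule was applied. Rnf43, a ubiquitin ligase that removes Frizzled receptors and is itself a Wnt target, was at 87.1 and 148 CPM (ratio 0.589, 0.424 to 0.797). Sp5, a repressor induced by Wnt, was lowest of those at 20 CPM or more in a library, at 12.2 and 30.7 CPM (ratio 0.395, 0.144 to 0.871), on 6 antagonist UMIs. Other targets differed by less or had wide intervals: Axin2, a scaffold of the beta-catenin destruction complex, was at 148 and 188 CPM (ratio 0.786, 0.613 to 0.993), and Cd44, a hyaluronan receptor, at 32.4 and 54.5 CPM (ratio 0.594, 0.337 to 0.974). Smoc2, a matrix protein of stem cells, was at 128 and 161 CPM (ratio 0.791, 0.605 to 1.02), and Sox9, a transcription factor of the crypt base, at 203 and 262 CPM (ratio 0.773, 0.626 to 0.944). The cell cycle gene Ccnd1 lay on the other side, at 237 and 187 CPM (ratio 1.27, 1.04 to 1.53), and Myc was at 77.0 and 73.8 CPM (ratio 1.04, 0.732 to 1.45). The direction of the list median rested on settings: it was 0.0016 with members at 0.4% Olfm4 or more, -0.68 with members at 0.1% or more, -0.13 with cells thinned to 3000 UMIs and 0.026 with 5 in place of 0.5 added to each sum.

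**Figure D2:**
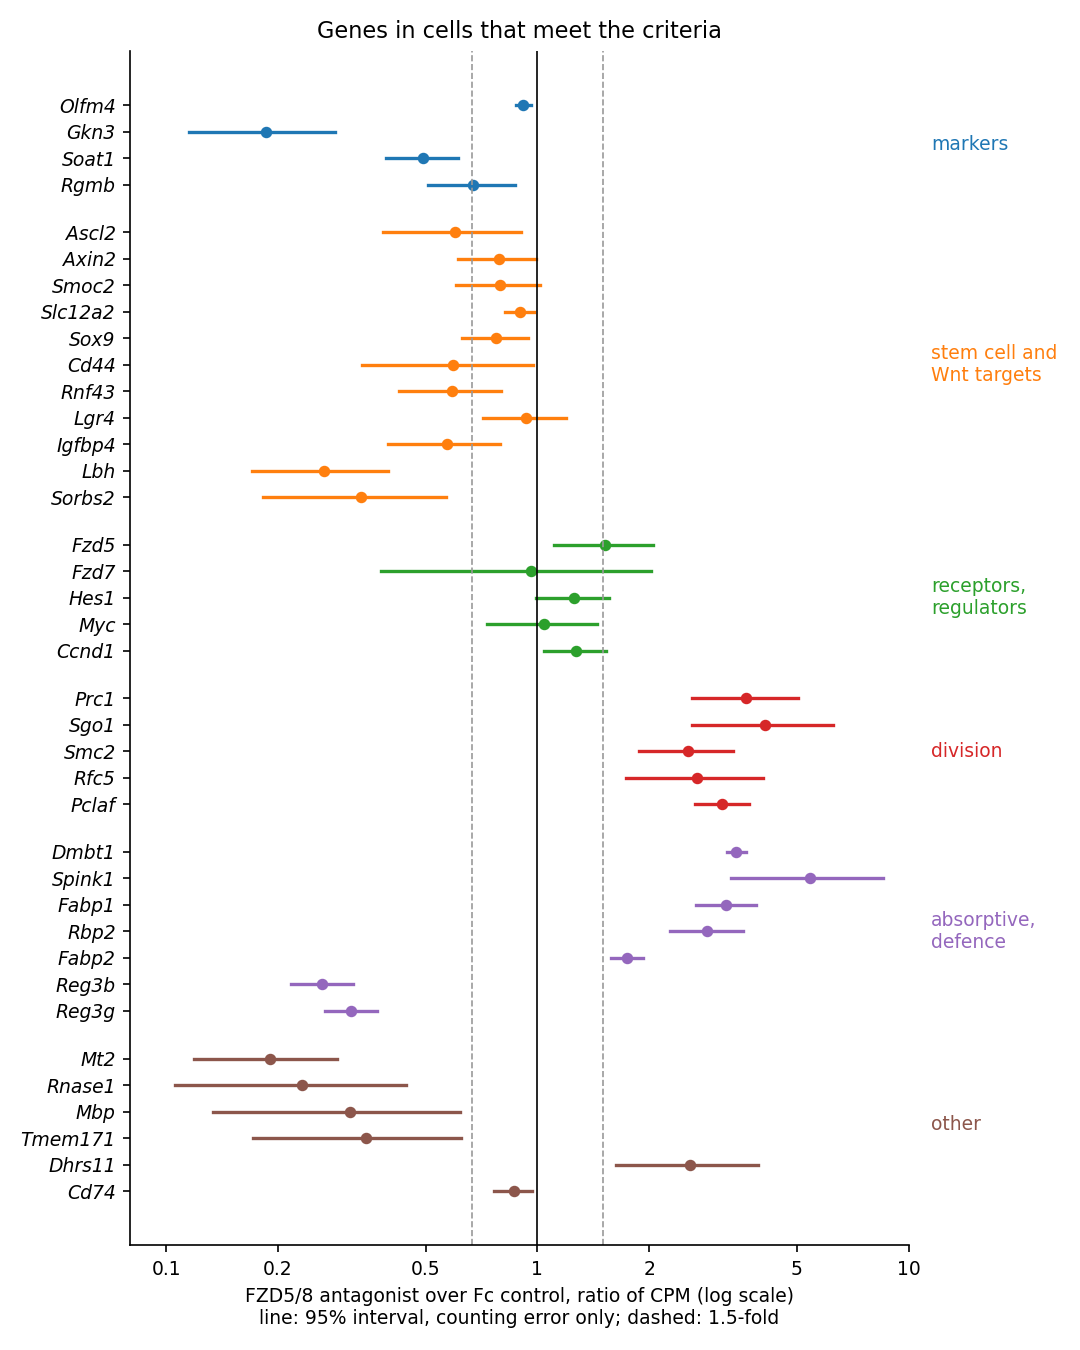
Each point is the ratio of a gene's level in FZD5/8 antagonist members to that in Fc control members (log axis), with its exact 95% interval for counting error. Dashed lines mark 1.5-fold: Gkn3 (0.186) and Mt2 (0.190) lie furthest to the low side and Spink1 (5.41) to the high side.

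Among the receptors, Fzd5, a target of the antagonist, was at 95.2 CPM in antagonist members and 62.5 CPM in control members (ratio 1.52, 1.11 to 2.05). In cells of 2000 to 6000 UMIs its log2 ratio was -0.044, against 0.62 over all members. Fzd8, the other target, had 1 and 17 UMIs (ratio 1.12, 0.0268 to 7.15), which is too few to compare. Fzd7, the Frizzled best known in Lgr5 stem cells, was at 14.2 and 14.8 CPM (ratio 0.959, 0.379 to 2.03). Lgr4, a receptor for R-spondin, was at 130 and 139 CPM (ratio 0.931, 0.713 to 1.20), and Znrf3, a ubiquitin ligase that acts like Rnf43, at 28.4 and 30.4 CPM. The list of 11 counted Wnt receptors and co-receptors had 1 gene higher and 3 lower by 1.5-fold, with a median log2 ratio of -0.09. Over all genes counted 13.2% were higher and 19.8% lower.

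The Notch, BMP and Eph lists lay near the level of all genes counted, of which 13.2% were higher and 19.8% lower by 1.5-fold. In the Notch list 2 of 15 counted genes were higher and 3 lower, with a median log2 ratio of -0.04. Hes1, the Notch effector that represses secretory fate, was at 172 and 138 CPM in antagonist and control members (ratio 1.25, 0.993 to 1.56). Atoh1, which drives secretory fate, had 0 and 26 UMIs, and 0 UMIs at this depth cannot show a difference: the 3-count floor of the antagonist members lies above the control level of 2.76 CPM. Dll1, a Notch ligand of secretory precursors, had 5 and 162 UMIs (ratio 0.588, 0.188 to 1.40). In the BMP list 2 of 17 were higher and 3 lower, and Bmp3, an antagonist of BMP signalling, was at 99.2 and 50.8 CPM (ratio 1.95, 1.42 to 2.62). In the Eph list 2 of 11 were higher and 3 lower; Ephb2, a receptor that positions cells along the crypt, was at 48.6 and 48.9 CPM, and Efna4, an ephrin ligand, at 20.3 and 43.9 CPM. Sox4, a transcription factor of secretory precursors, was at 77.0 and 126 CPM (ratio 0.610, 0.429 to 0.842), in a list of 8 counted secretory progenitor genes of which 5 were lower and 2 higher.

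Cell cycle genes that the rule did not use were higher in antagonist members, while 13.2% of all genes counted were higher and 19.8% lower by 1.5-fold. Of 48 counted G2 and M phase genes, 36 (75%) were higher by 1.5-fold or more and none was lower by that much, with a median log2 ratio of 0.97 and a summed level of 2572 CPM in the antagonist library and 1482 CPM in the control library. Prc1, which bundles the microtubules of the central spindle, was at 93.2 and 25.5 CPM (ratio 3.65, 2.60 to 5.02). Sgo1, the protector of centromere cohesion, was at 54.7 and 13.3 CPM (ratio 4.11, 2.61 to 6.28). Smc2, a condensin subunit, was at 111 and 43.8 CPM (ratio 2.54, 1.88 to 3.38). Depth moved with this result. In each library a similar part of the members had 1 mitotic gene detected, 41.7% of antagonist and 41.2% of control members. Detection depends on depth, and antagonist members were shallower, so this does not show a like level. The 5 mitotic genes of the rule summed to 294 CPM in antagonist and 157 CPM in control members (ratio 1.86, 1.56 to 2.21). Members are thus non-mitotic only by the limit on detected genes. The whole G2 and M phase list, with the mitotic genes of the rule, had a median log2 ratio of 0.98. With cells thinned to 3000 UMIs before the rule was applied, the median of this whole list was 0.20, and the log2 ratio of Sgo1 was -0.027. With cells thinned to 1000 UMIs the list stood at 0.52.

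S phase genes followed in part. Of 40 counted without the genes of the rule, 20 (50%) were higher by 1.5-fold or more and none was lower by that much, with a median log2 ratio of 0.58. Pclaf, a partner of the replication clamp, was at 340 and 108 CPM in antagonist and control members (ratio 3.15, 2.66 to 3.71), and Rfc5, a subunit of the clamp loader, at 54.7 and 20.3 CPM (ratio 2.69, 1.73 to 4.04). Cdca7, a chromatin factor that is also part of the stem cell signature, was lowest of those at 20 CPM or more, at 320 and 469 CPM (ratio 0.682, 0.578 to 0.799). Among 15 counted G1 genes, 5 (33.3%) were higher and 1 lower by 1.5-fold, beside 13.2% higher and 19.8% lower of all genes counted. Ccne2, a cyclin of S phase entry, was at 30.4 and 8.72 CPM, and Cdk2, its kinase, at 64.8 and 29.0 CPM. On the low side of that list, the inhibitor Cdkn1b was at 56.7 and 83.8 CPM and the kinase Cdk6 at 150 and 216 CPM.

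Genes of the absorptive lineage were higher in antagonist members, at low levels. Over all genes counted 13.2% were higher and 19.8% lower by 1.5-fold. Of 36 counted absorptive enterocyte genes, 14 (38.9%) were higher and 4 lower by 1.5-fold, with a median log2 ratio of 0.42 and a summed level of 4103 and 3145 CPM. Fabp1, a fatty acid binding protein, was at 273 and 84.7 CPM (ratio 3.23, 2.67 to 3.88). Of its 135 antagonist UMIs 43 lay in 1 cell, and its log2 ratio was 1.69 with the top cell of each library and 1.25 without. Rbp2, which binds retinol, was at 182 and 63.5 CPM (ratio 2.87, 2.27 to 3.59), and 158 of its 597 control UMIs lay in 1 cell. Fabp2, the intestinal fatty acid binding protein, was spread over 190 and 1803 members, at 883 and 505 CPM (ratio 1.75, 1.58 to 1.93). Other absorptive genes were at similar levels: Slc5a1, the sodium-glucose transporter, was at 132 and 147 CPM, and Hnf4g, a nuclear receptor of enterocytes, at 91.1 and 103 CPM. Of 20 counted early absorptive genes, 12 were higher and 4 lower, with a median log2 ratio of 0.88, but of -0.037 over the 13 genes with 100 UMIs.

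Dmbt1, a secreted scavenger receptor of mucosal defence, had the most UMIs of the genes that were highest in antagonist members. Dmbt1 (ENSMUSG00000047517, chr7:131032053-131121630, plus strand) had 1274 UMIs in 231 of 278 antagonist members and 7059 UMIs in 1756 of 2762 control members, or 2580 and 751 CPM (ratio 3.44, 3.24 to 3.65). Thinned to 3000 UMIs, Dmbt1 had a UMI in 85.2% of antagonist and 60.5% of control members, and in 63.4% and 46.1% of apolipoprotein-rich cells, so that the member shares lay above those of these cells in both libraries. Its ratio was 3.57 among members under 2000 UMIs, 2.63 from 2000 to 4000 and 1.56 from 4000 to 8000 UMIs. Spink1, a secreted trypsin inhibitor, had the highest ratio of the autosomal genes in the naming rule, at 50.6 and 9.36 CPM (ratio 5.41, 3.32 to 8.52) on 25 antagonist UMIs, 8 of them in 1 cell. The antimicrobial lectins went the other way: Reg3b was at 223 and 846 CPM (ratio 0.263, 0.216 to 0.318) and Reg3g at 322 and 1021 CPM (ratio 0.315, 0.268 to 0.369). One antagonist cell held 25 of the 110 Reg3b UMIs and 1 held 23 of the 159 Reg3g UMIs, and without the top cells both log2 ratios were lower still, at -2.25 and -1.84.

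Of the 3321 genes that reached 50 CPM in either library and 100 UMIs in total, 7.5% were higher and 6.14% lower by 1.5-fold, and genes were named by rank among the 3154 of these that the naming rule left eligible. The other genes with the lowest ratios belonged to no single list. Mt2, a metallothionein that binds zinc, was at 44.6 CPM in antagonist members and 234 CPM in control members (ratio 0.190, 0.119 to 0.288), and Mt1, its neighbour, at 569 and 860 CPM. Rnase1, a secreted ribonuclease, was at 18.2 and 78.6 CPM (ratio 0.232, 0.106 to 0.443). Mbp, known as a myelin protein gene, was at 16.2 and 51.9 CPM, and Tmem171, a membrane protein gene, at 22.3 and 64.5 CPM. On the high side, Dhrs11, a short-chain dehydrogenase, was at 50.6 and 19.7 CPM (ratio 2.57, 1.62 to 3.92).

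**Figure D3:**
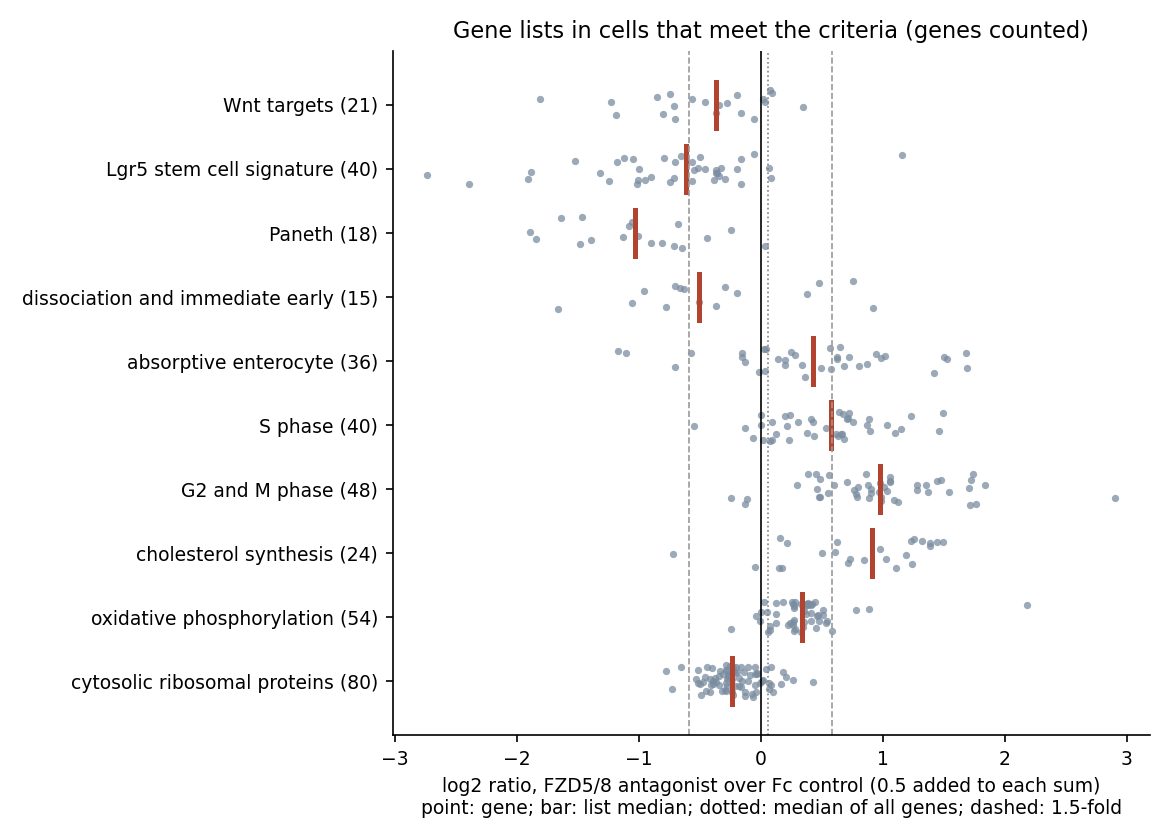
Each point is the log2 ratio of a gene counted in 1 of 10 lists, FZD5/8 antagonist over Fc control members, with the list median as a bar. The stem cell signature (median -0.61) and Paneth genes (-1.04) lie below 0, and G2 and M phase (0.97) and cholesterol synthesis (0.91) above it. The Paneth list is drawn whole, with genes of the rule.

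Metabolic lists differed in direction from each other, while 13.2% of all genes counted were higher and 19.8% lower by 1.5-fold. Of 24 counted cholesterol synthesis genes, 16 (66.7%) were higher and 2 lower by 1.5-fold in antagonist members, with a median log2 ratio of 0.91. Their levels are low, and they summed to 739 and 456 CPM (ratio 1.62, 1.45 to 1.80). Sqle, squalene epoxidase, was at 22.3 and 8.82 CPM (ratio 2.52, 1.21 to 4.75), and Msmo1, a sterol methyl oxidase, at 20.3 and 8.08 CPM (ratio 2.51, 1.15 to 4.87). Srebf2, the transcription factor of the pathway, was at 30.4 and 28.1 CPM. In the fatty acid oxidation and ketogenesis list 9 of 25 were lower and 2 higher, with a median log2 ratio of -0.22. Acot1, a thioesterase, was at 62.8 and 138 CPM (ratio 0.453).

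Nuclear-encoded genes of oxidative phosphorylation were mostly higher by a small amount, while 13.2% of all genes counted were higher and 19.8% lower by 1.5-fold. Of 54 counted, 51 were higher in antagonist members and 3 (5.56% of those counted) by 1.5-fold. Their median log2 ratio was 0.34 and their summed levels were 52090 and 39968 CPM. Ndufa3, a subunit of complex I, was at 968 and 523 CPM (ratio 1.85, 1.68 to 2.04), while Ndufs3 of the same complex was at 219 and 260 CPM. The 13 mitochondrially encoded genes had none past 1.5-fold and a median log2 ratio of -0.14 over all members, but their direction turned with depth. Their median was -0.95 in members under 2000 UMIs, -0.57 from 2000 to 4000 and 0.17 from 4000 to 8000 UMIs. Of 80 counted cytosolic ribosomal protein genes 67 were lower, 3 of them by 1.5-fold, with a median log2 ratio of -0.23 over all members, but 0.24 in members under 2000 UMIs and -0.12 from 4000 to 8000 UMIs. Rps12, of the small subunit, was at 1322 and 2187 CPM. Ribosomal protein genes have many near-identical pseudogenes, so their counts are uncertain.

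Stress and immune lists were mixed. Immediate early genes had 8 of 15 (53.3%) lower and 1 higher, beside 19.8% lower and 13.2% higher of all genes counted, and Fos was at 8.10 and 28.8 CPM in antagonist and control members. The unfolded protein response list had 6 of 22 (27.3%) higher and 1 lower, and Sdf2l1, a chaperone cofactor of the endoplasmic reticulum, was at 40.5 and 18.5 CPM (ratio 2.19, 1.31 to 3.49). Cdkn1a, the cell cycle inhibitor induced by p53, had 4 and 32 UMIs (ratio 2.38, 0.612 to 6.71), while 7 of 22 genes (31.8%) of the p53 list were higher and none was lower. MHC class II genes had 1 higher and 1 lower of 8 (12.5% each), and Cd74, the invariant chain, was at 614 and 711 CPM (ratio 0.863, 0.766 to 0.968). The direction of Cd74 turned within strata: its ratio was 1.37 (1.15 to 1.62) from 2000 to 4000 UMIs and 1.49 (1.19 to 1.84) at 0.5 to 1% Olfm4. Of 34 interferon response genes 7 (20.6%) were lower, close to the share over all genes, and none was higher, with a median log2 ratio of -0.0052.

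Markers of other cell types were present in the members, and their part in the results was not tested. Most UMIs of the Paneth cell list came from genes that the rule limits, so its counts and levels are a description only. Of 18 counted Paneth cell genes 15 were lower and none higher, beside 19.8% lower and 13.2% higher of all genes counted. They summed to 7009 CPM in antagonist members and 11781 CPM in control members. At least 1 of their UMIs was in 98.2% and 100% of members. Paneth cell genes outside the rule, 7 in each library counted against the Olfm4-low cells, summed to 832 and 1496 CPM in members. The median share of Lyz1 and Defa was 0.403% and 1.07% of UMIs in members, against 0.244% and 0.488% in apolipoprotein-rich cells. Lyz1 (ratio 0.357), Defa5 (0.253) and Defa22 (0.355), each limited by the rule, were among the lowest genes of the members. Goblet cell genes summed to 693 and 474 CPM and were at 10 UMIs or more in 1 antagonist and 16 control members. Of these levels, 597 and 392 CPM came from the 5 goblet genes that the rule limits. Goblet cell genes outside the rule summed to 95.2 and 81.7 CPM (ratio 1.17, 0.849 to 1.57).

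Single cells held much of 3 other marker lists. Enteroendocrine genes had 94 and 465 UMIs, of which 77 lay in 1 antagonist cell and 267 in 1 control cell, and without those cells the levels were 34.6 and 21.1 CPM. The granin Chgb, among the highest genes by ratio (4.07), had 45 of its 50 antagonist UMIs and 192 of its 234 control UMIs in 1 cell each. Tuft cell genes had 71 of 168 antagonist UMIs in 1 cell, and without the top cells stood at 198 and 179 CPM. T and NK cell genes had 22 and 23 UMIs, 18 of the antagonist ones in 1 cell. Stromal, endothelial and erythroid lists were at or near 0: stromal genes stood at 2.03 and 2.87 CPM with 14 and 9 of 15 genes at 0, endothelial genes at 10.1 and 14.7 CPM with 9 and 5 of 12 at 0, and erythroid genes at 0 and 0.213 CPM with 6 and 4 of 6 at 0. B and plasma cell genes stood at 52.7 and 34.8 CPM with 13 and 10 of 15 at 0, and myeloid genes at 393 and 367 CPM with 11 and 5 of 17 at 0. A myeloid UMI was in 119 antagonist members (42.8%) and 1611 control members (58.3%).

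Among themselves, members with more Olfm4 had more Slc12a2, Rgmb, Soat1, Lbh, Igfbp4 and Sox9 and less Dmbt1 and Fabp2 in each library. Some other stem cell genes (Cd44, Smoc2, Lgr4 and Ascl2) differed in direction between the libraries, on few antagonist UMIs. Cells at 0.5% Olfm4 or more were 46 of 278 in the antagonist library and 654 of 2762 in the control library. Depth differed with Olfm4, in opposite directions in the libraries. Median UMIs per antagonist member were 1440.5 at 0.2 to 0.5% and 1722 at 0.5 to 1%. In the control library these medians were 3158.5 and 2199. In the strata of depth given below, control levels of Slc12a2, Rgmb, Soat1, Igfbp4 and Dmbt1 fell with depth. Fabp2 rose, and Lbh and Sox9 had no single direction. The part of depth in the ratios by Olfm4 was not tested. Relative to members at 0.2 to 0.5%, Slc12a2, the sodium-potassium-chloride cotransporter of the crypt, was 1.46-fold higher (1.18 to 1.81) in the antagonist library and by a ratio of 1.5 (1.43 to 1.56) in the control library. Rgmb was 1.53-fold (0.773 to 2.83) and 1.57-fold (1.40 to 1.75) higher, and Soat1 1.74-fold (1.02 to 2.87) and 1.33-fold (1.22 to 1.44). Lbh was 6.87-fold higher (2.84 to 17.3) in the antagonist library, on 14 and 10 UMIs, and 1.95-fold (1.76 to 2.16) in the control library. Dmbt1 had ratios of 0.487 (0.398 to 0.590) and 0.692 (0.645 to 0.742), and Fabp2 of 0.607 (0.440 to 0.820) and 0.759 (0.698 to 0.823). On few antagonist UMIs, Cd44 (0.327), Smoc2 (0.817) and Lgr4 (0.908) had ratios under 1 in the antagonist library and over 1 in the control library, and Ascl2 had 2.02 (0.708 to 5.12) and 0.947 (0.778 to 1.14). Cd74 was 2.17-fold higher (1.68 to 2.79) in high-Olfm4 antagonist members and 1.06-fold (0.998 to 1.13) in control ones.

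The Lgr5-negative cells with Olfm4 under 0.2% that met all other criteria were 4783 in the antagonist library and 1858 in the control library. Since Olfm4 itself separated them from the members, the comparison is a description. These Olfm4-low sets were unlike in Olfm4, with a median share of 0% in the antagonist library and 0.0919% in the control library. In the antagonist library 21.5% of 10933 genes were higher and 18.0% lower in members by 1.5-fold, and in the control library 12.6% and 12.1% of 11681. Of the stem cell signature 36 of 38 counted genes were higher in antagonist members and 37 of 40 in control members, with median log2 ratios of 1.49 and 1.11. Absorptive genes were lower, 38 of 44 and 39 of 45, with medians of -2.27 and -3.11. Gsta1, a glutathione transferase of enterocytes, was at 6.08 CPM (3 UMIs) in antagonist members and 450 CPM in their Olfm4-low cells (ratio 0.0135, 0.00279 to 0.0395), and at 3.62 and 418 CPM in the control library. Igfbp4 was at 72.9 and 12.5 CPM in the antagonist library and at 128 and 46.0 CPM in the control library. Axin2 was 5.25-fold higher in members (4.02 to 6.79) in the antagonist library and 2.07-fold (1.90 to 2.26) in the control library.

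The gap between the libraries thus had another size in the members than in the Olfm4-low cells for part of the genes. Axin2 had an antagonist-to-control ratio of 0.786 in members and 0.310 in Olfm4-low cells, Slc12a2 0.895 and 0.504, Ascl2 0.601 and 0.177, and Rgmb 0.670 and 0.320. Gkn3, at 0.186 and 0.174, and Dmbt1, at 3.44 and 3.33, had nearly the same ratio in both kinds of cell. Fabp1 lay on opposite sides, at 3.23 and 0.618, and Mt2 was at 0.190 and 0.689. The rule sets a lowest Olfm4 share for members, while the Olfm4-low sets differed in Olfm4 between the libraries. Whether the wider gaps in Olfm4-low cells follow from this was not tested. The ratios share the libraries and were not tested against each other.

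**Figure D4:**
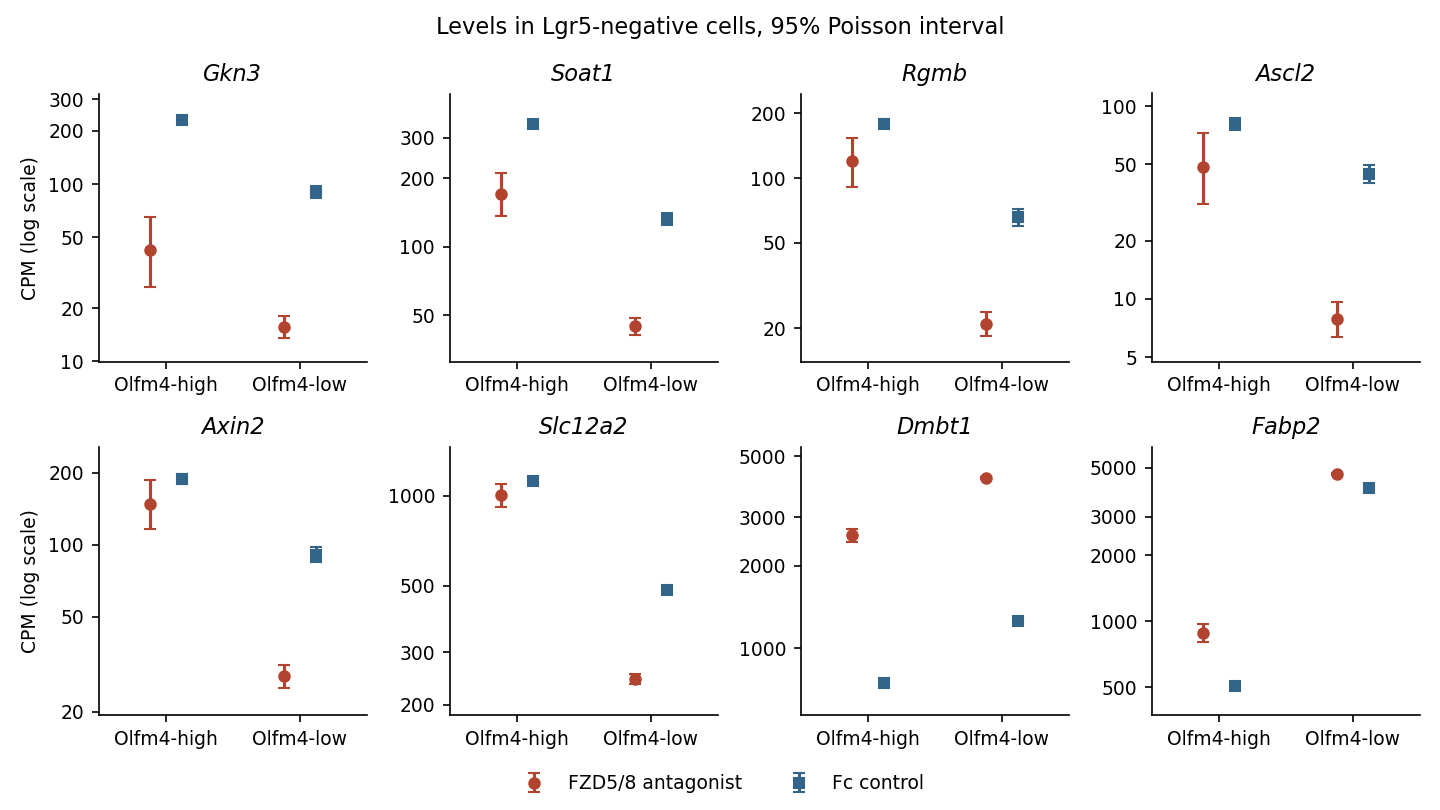
Points are levels in CPM (log axis, one scale per panel) with exact 95% Poisson intervals in Lgr5-negative cells with Olfm4 at 0.2% of UMIs or more and under 0.2%, for the FZD5/8 antagonist and Fc control libraries. Axin2 is at 148 and 188 CPM in the Olfm4-high cells and further apart in the Olfm4-low ones, while Gkn3 and Dmbt1 keep a similar gap in both. The Olfm4-low cells of the libraries are unlike in Olfm4 itself.

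Against cells that met all criteria but had 1 or more Lgr5 UMIs, 16 in the antagonist library and 1265 in the control library, only the control library gave a usable comparison. There 3.37% of 11280 genes were higher and 2.58% lower by 1.5-fold in members, with medians of 2890.5 UMIs per member and 4329 UMIs per Lgr5-positive cell. For the stem cell signature the median log2 ratio was -0.18, with 0 of 40 counted genes higher and 1 lower by 1.5-fold. Whether members are stem cells with a missed Lgr5 transcript was not tested. Gkn3 was at 229 CPM in members and 305 CPM in Lgr5-positive cells, and Dmbt1 at 751 and 467 CPM (ratio 1.61, 1.54 to 1.68).

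Within strata of depth the main directions held for most lists. From 0 to 2000, 2000 to 4000 and 4000 to 8000 UMIs, the median log2 ratio of the Wnt target list was -0.63, -0.50 and -0.30. That of the stem cell signature without the genes of the rule was -0.94, -0.56 and -0.55. Cholesterol synthesis stood at 0.85, 0.63 and 0.63, and oxidative phosphorylation at 0.74, 0.50 and 0.40. The absorptive list did not keep its sign, at 0.28, -0.13 and 0.73. The deepest of these strata held 10 antagonist members. There the G2 and M phase genes outside the rule summed to 928 CPM in antagonist members and 1211 CPM in control members, so their summed level was lower in the antagonist library although their median log2 ratio was 0.22. Gkn3 had ratios of 0.144 and 0.304 in the shallower strata, Soat1 0.366 and 0.567, and Rnf43 0.451 and 0.433. Axin2 had 0.678 and 0.606 there, against 0.786 over all members. Smoc2 had 0.654 and 0.718, against 0.791, and Ascl2 had 0.393 and 0.836, against 0.601.

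**Figure D5:**
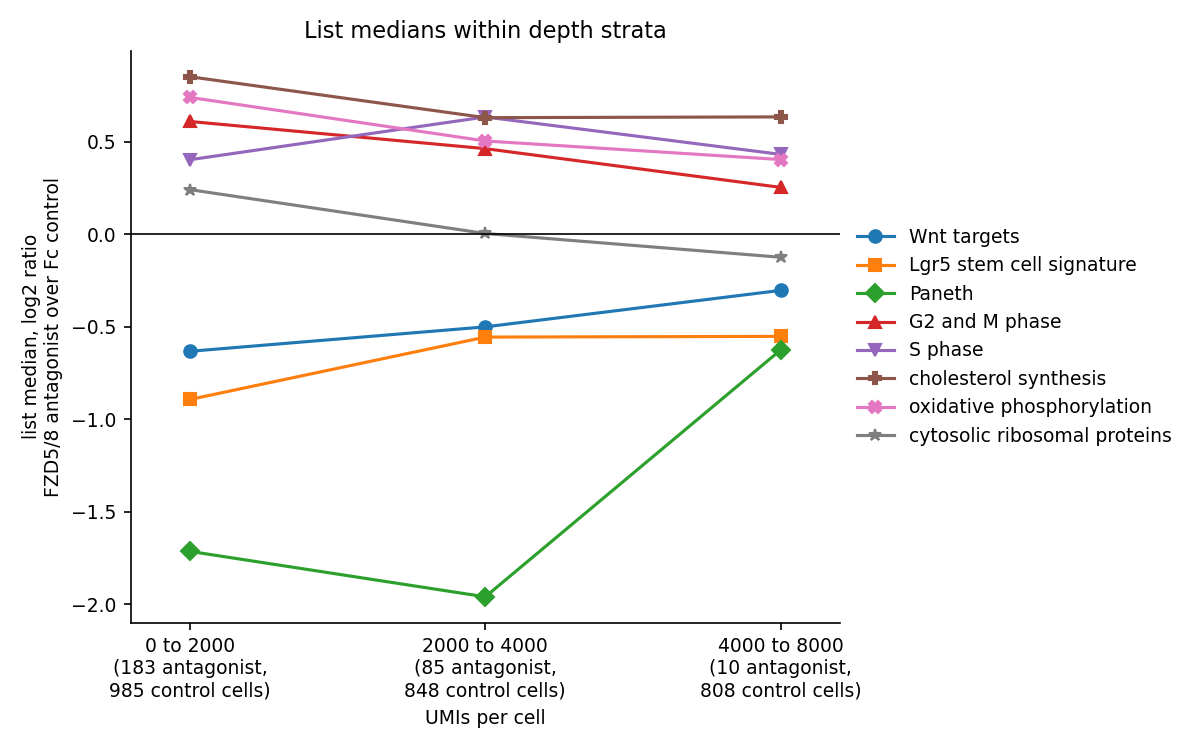
Lines give the median log2 ratio (FZD5/8 antagonist over Fc control members) of 8 gene lists in 3 strata of UMIs per cell, with 183, 85 and 10 antagonist and 985, 848 and 808 control members. The Wnt target, stem cell and Paneth lists stay below 0 and the medians of the cell cycle, cholesterol and oxidative phosphorylation lists above it, while the ribosomal list crosses 0. The stem cell, Paneth and cell cycle lists are drawn whole, with genes of the rule.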

How the data were processed

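The authors deposited raw UMI counts for each gene in each cell barcode. Per the submitters' processing notes these came from Cell Ranger with the mouse build GRCm38 (mm10), and the file headers name software version 3.1.0. The files list 31053 genes, of which 30934 identifiers were found in a GENCODE annotation of GRCm38 used for coordinates. The GFP reporter is not among them. The choice of barcodes is not described in the labels, and the lowest barcode had 500 UMIs.

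Cells were chosen by the rule given in the opening, and counts were summed per library over the members. Levels have exact Poisson, shares exact binomial (Clopper-Pearson) and ratios exact conditional binomial 95% intervals, for counting error only. The analysis planned no test, since there was 1 library per condition. Log2 ratios have 0.5 added to each sum, which favours the antagonist library, with fewer UMIs, for genes of low count. With the addition scaled to the library total, the median over all genes was -0.02 in place of 0.06.

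Named genes were the 12 highest and 12 lowest ratios among genes that reached 50 CPM in either library and 100 UMIs in total, a list of crypt genes, and the 2 highest and 2 lowest genes of each list that reached 20 CPM. Unnamed gene models, ribosomal protein and mitochondrially encoded genes were left out of the rule, and some genes it names are not reported here. The members and lists were chosen with earlier results of these data known. No doublet caller was run, so doublets remain; an alternative leaves out the deepest 5% of cells. Genes of nearly identical sequence, such as Defa, Reg3b and Reg3g, may share reads. Calculations were tested on simulated counts. Python 3.11.15, numpy 2.4.6, scipy 1.17.1, pandas 2.3.3 and matplotlib 3.10.9 were used.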

Additional observations from a re-analysis of the deposited data

How the results depend on the processing

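No paired analysis was possible because there was 1 library per condition and the results come from no test. Of 52 named genes 38 were past 1.5-fold, and 31 of these kept their direction under every alternative run; of 21 list medians 10 did. The causes below were not tested, except that a larger addition to each sum favours the library with fewer UMIs by construction.

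The share of members (antagonist, then control) was 1.07% and 29.7% with cells thinned to 3000 UMIs, 5.57% and 48.1% thinned to 1000, 1.62% and 20.6% with at least 1000 genes, 6.98% and 32.2% at 0.1% Olfm4, 0.608% and 10.1% at 0.4%, 1.23% and 12.0% with stricter cell cycle limits, and 1.69% and 22.3% with at least 4 Olfm4 UMIs. The control share was 22.1% at 10% mitochondrial UMIs, 17.5% with stricter Paneth and goblet limits and 25.8% without the deepest 5% of cells.

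Genes higher by 1.5-fold numbered 1420, 2189 with no minimum, 686 at 100 UMIs and 506 at 2-fold. Genes lower numbered 2126, 5577 with no minimum, 1093 at 100 UMIs, 1161 at 2-fold and 3353 thinned to 3000.

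The Wnt target median was -0.13 thinned to 3000, -0.64 thinned to 1000, -0.68 at 0.1% Olfm4, 0.0016 at 0.4%, -0.66 with equal weight for each cell and 0.026 with 5 added. The stem cell and G2 and M phase lists were taken whole here, with genes of the rule, and stood at -0.57 and 0.98 over all members. The stem cell signature gave -0.81 at 0.1% Olfm4, -0.35 at 0.4%, -0.94 thinned to 1000, -0.84 with equal weight and -0.34 with 5 added. Absorptive genes gave 0.085 thinned to 3000, 0.64 at 0.1% Olfm4, 0.22 at 2000 to 6000 UMIs and 1.07 with 5 added. G2 and M phase gave 0.20 thinned to 3000, 0.52 thinned to 1000, 0.67 with 1000 genes, 0.38 at 0.4% Olfm4, 0.66 with 4 Olfm4 UMIs, 0.68 at 2000 to 6000 UMIs and 1.40 with 5 added.

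Among lists with a median 0.1 or more from 0 and genes past 1.5-fold, directions also turned for early absorptive genes (-0.0058 at 0.4% Olfm4, -0.037 at 100 UMIs), tuft (-0.14 at 0.4%), goblet (-0.0093 with 1000 genes, -0.16 at 2000 to 6000 UMIs), immediate early (0.44 with 5 added) and fatty acid oxidation (0.076 with 5 added). They turned for the genes Sgo1 (-0.027), Chgb (-3.04) and Ascl2 (0.12) thinned to 3000, Ephb3 (0.12 at 0.4%), Fzd5 (-0.044 at 2000 to 6000 UMIs), Fzd8 (-0.21 with 1000 genes, -0.79 without its top cells) and Atoh1 (0.33 thinned to 3000, 1.03 thinned to 1000, 2.49 at 0.4%), the last with no antagonist UMI over all members. Closer to 0, the Notch, BMP, MHC class II, interferon and Wnt receptor lists and the genes Axin2, Sox9, Hes1, Cd74, Olfm4, Ephb2, Fzd7, Znrf3 and Myc each turned under at least 1 alternative. Thinning to 1000, the 4-UMI limit and leaving out top cells were chosen after seeing the data. Depth limits low genes: the antagonist members held 493801 UMIs in 278 cells, so a gene under 20 CPM rests on under 10 of their UMIs.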

Other observations

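Among the keratins of the members, Krt18 was at 470 CPM in antagonist members and 830 CPM in control members, and Krt8, its usual partner, at 699 and 451 CPM. Krt19, of simple epithelia, was at 498 and 374 CPM (ratio 1.33). Eno1 and Ldha, of glycolysis, were at 132 and 68.9 CPM and at 296 and 199 CPM, while Pdha1, which passes pyruvate into mitochondria, was at 138 and 192 CPM. Odc1, the first enzyme of polyamine synthesis, was at 70.9 and 38.5 CPM.

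Errfi1, a feedback inhibitor of the EGF receptor, had 4 and 230 UMIs (ratio 0.331, 0.0895 to 0.860), and Lrig1, another one, was at 38.5 and 71.3 CPM. Egfr itself was at 26.3 and 26.2 CPM. Cox7a1, a subunit of complex IV best known from muscle, was at 34.4 and 7.76 CPM (ratio 4.44) on 17 antagonist UMIs. Rbp7 and Car4, which mark maturing enterocytes, were at 24.3 and 3.83 CPM and at 22.3 and 4.36 CPM.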
